A study of Saccharomyces cerevisiae and Saccharomyces kudriavzevii and Saccharomyces uvarum with 18 samples.

Results

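The seripauperin genes (PAU) examined here were 8 members of a large multigene family of Saccharomyces cerevisiae, PAU1 (YJL223C), PAU2 (YEL049W), PAU3 (YCR104W), PAU4 (YLR461W), PAU5 (YFL020C), PAU6 (YNR076W), PAU7 (YAR020C) and PAU17 (YLL025W). They were chosen by the identifiers of their open reading frames, with no threshold on measured values although earlier results of these data were known, and make up 8 of the 6172 genes on the array. A further 15 PAU genes on the array served as a comparison list.

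Seripauperins are small secreted proteins, poor in serine, that are related to the Tir and Dan mannoproteins of the cell wall. In S. cerevisiae their genes are known to be repressed by oxygen and heme, and to be active in alcoholic fermentation, in anaerobic cultures and after a shift to low temperature. Their products are thought to act at the cell surface, and the sequences of the copies are so similar that a probe for one can bind transcripts of others.

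Gene expression was measured in wine fermentations of Tempranillo must at 12°C and at 28°C, in cells collected at the beginning of the stationary phase. Strains compared were Fermol cryophile, a wine yeast sold commercially and also S. cerevisiae, S. uvarum CECT 12600, called S. bayanus var. uvarum in the study, and S. kudriavzevii IFO 1802. Each array set 1 of these strains, in the Cy3 channel, against the wine strain S. cerevisiae Lalvin T73, in the Cy5 channel, from a fermentation at the same temperature. With replicates A, B and C this gave 6 groups of 3 arrays and 18 arrays in all. Each species is represented by 1 strain, and no dye was swapped, so a strain difference and a species difference cannot be told apart and a dye bias of a gene stays in its ratio. The methods mention 2 independent fermentations. If arrays of a group shared one, the standard deviations (SD) and p-values below understate the error. All values are log2 of strain over T73, so that 0 is the level of T73 and 1 is 2-fold higher.

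The arrays differed in spread, with SDs over all genes from 0.630 to 1.99, and replicates of a group correlated with r between 0.0276 and 0.705 over genes. Arrays from different temperatures correlated below -0.3 in 15 of 81 pairs, the lowest at -0.618. The sign of all arrays was turned together, as described below. None was turned singly, because the labels state the dyes. The probes were PCR products of S. cerevisiae S288c genes. Ratios of S. uvarum and S. kudriavzevii therefore also hold any difference in hybridisation, whose part in the results below was not tested. The study had tried its hybridisation conditions with DNA, and reports that most genes of both strains hybridised. The intensities of the spots were not used here, so signal over background is unknown, and precision is limited by how many arrays there are.

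Seripauperin ratios stood above T73 in S. kudriavzevii and mostly below it in Fermol cryophile. At 12°C, 21 of 23 single values of the members in S. kudriavzevii lay above 0, and at 28°C 20 of 24 did. In Fermol cryophile 18 of 24 values lay below 0 at 12°C and 19 of 23 at 28°C, while S. uvarum was divided, with 13 of 24 and 14 of 23 values below 0. Over all genes, between 43.1% and 55.8% of values lay above 0 on each array, and at most 45.1% in Fermol cryophile at 12°C. The group means of S. kudriavzevii were above 0 for 8 of 8 members at both temperatures, with a median of 0.79 at 12°C and 0.45 at 28°C, beside medians over all genes of 0.07 and -0.003. These signs held under each of the alternative scalings tried and whichever single array was left out. The corresponding medians of the members were -0.63 and -0.48 in Fermol cryophile, beside -0.13 and 0.07 over all genes. In S. uvarum they were -0.42 and -0.26, beside 0.04 and 0.09. The members share arrays and may share transcripts through cross-hybridisation, so they are not independent of each other.

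**Figure D1:**
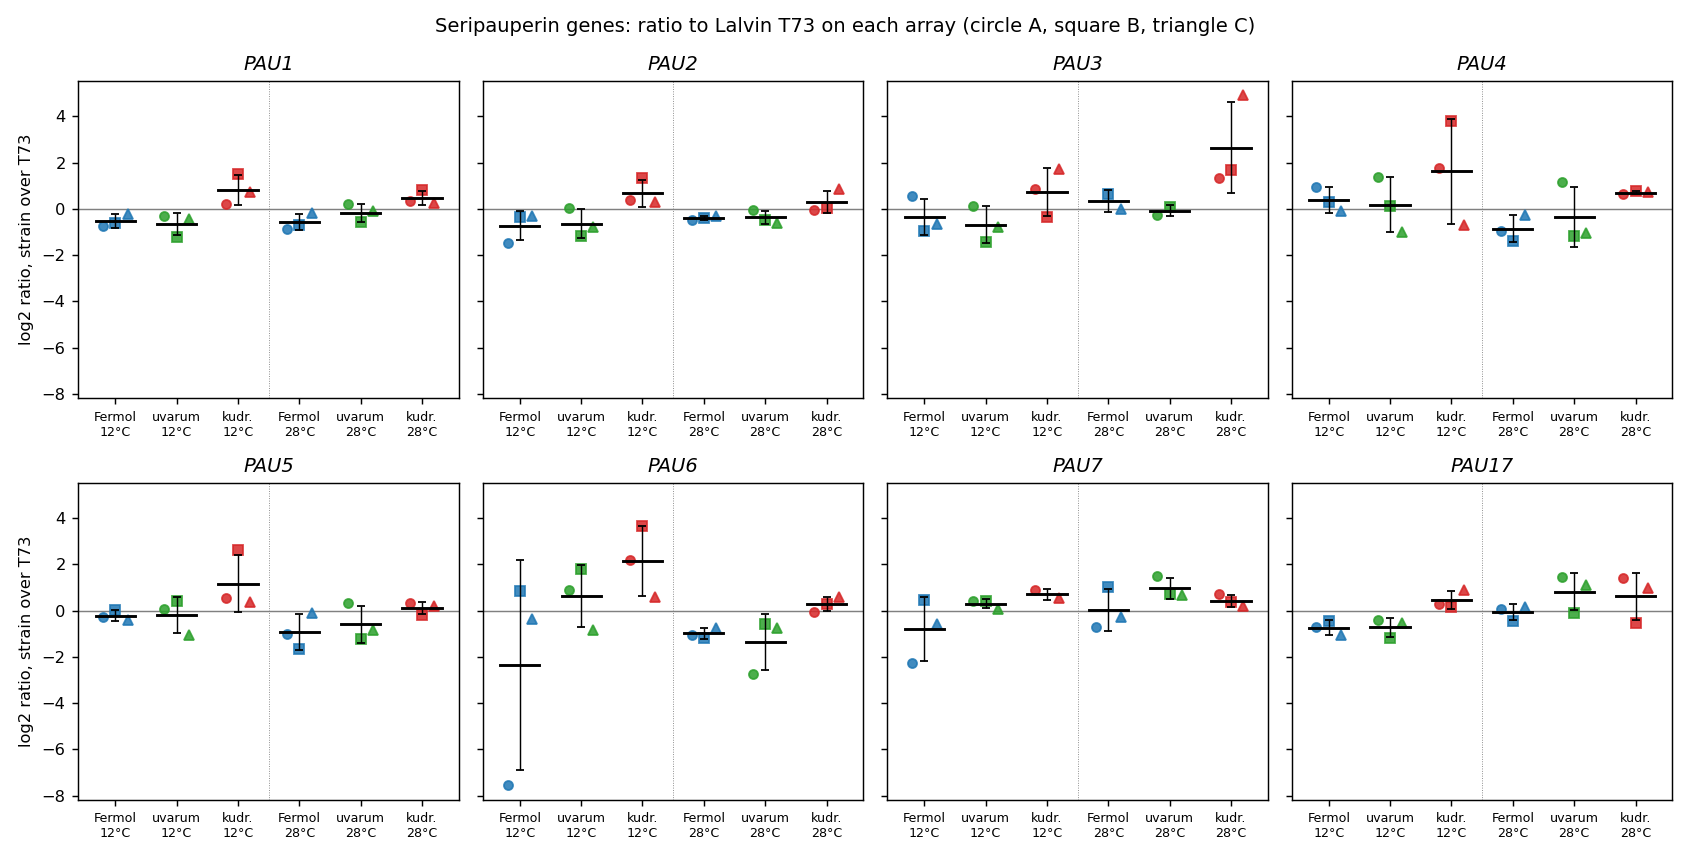
Log2 ratio of strain over T73 (y axis) for each of the 8 members, 1 panel per gene, in the 6 groups on the x axis (Fermol, uvarum and kudr. stand for the 3 strains). Points are single arrays, horizontal bars are means and vertical lines are 1 SD of the 2 or 3 values. The means of S. kudriavzevii, in red, lie above 0 in every panel, and replicate A of Fermol cryophile at 12°C stands at -7.56 for PAU6.

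No single member passed the test in any of these groups. Each gene was tested with limma, and a gene is referred to as called when its p-value, adjusted by the Benjamini-Hochberg method over all genes tested, was below 0.05. At 12°C limma called 0 of 8 members in Fermol cryophile, against 8.12% of all genes, 0 of 8 in S. uvarum, against 6.40%, and 0 of 8 in S. kudriavzevii, against 23.4%. At 28°C it called 0 of 8 in each strain, against 0.0325% of all genes in Fermol cryophile, 10.9% in S. uvarum and, for S. kudriavzevii, 0.146%.

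Without the adjustment, a p below 0.05 was reached by 6 of the values of members in these groups. In S. kudriavzevii at 12°C these were 3 of 8 members, all higher than T73, a share like the 37.8% of all genes. PAU5 stood at 1.17 (standard error, SE, 0.45, n = 3, limma adjusted p = 0.0716), PAU1 at 0.83 (SE 0.33, n = 3, limma adjusted p = 0.0771) and PAU4 at 1.62 (SE 0.65, n = 3, limma adjusted p = 0.0775). Without replicate B of that group they stood at 0.45, 0.48 and 0.53, and no member had an unadjusted p below 0.05. The count was also 0 when each array was scaled to one spread. In S. kudriavzevii at 28°C it was PAU3 alone, against 11.3% of all genes, and in Fermol cryophile at 12°C PAU6 alone, against 28.9%, which was lost without replicate A. In S. uvarum at 28°C it was PAU7, higher than T73 at 0.97 (SE 0.44, limma adjusted p = 0.167), against 28.2% of all genes. With each array centred or scaled no member did so in the last 2 of these groups. No member reached this level in S. uvarum at 12°C or in Fermol cryophile at 28°C.

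By the study's own rule, which has no test and asks for a replicate median 2-fold or more from T73, the members that passed were again few. In S. kudriavzevii at 12°C PAU4 and PAU6 passed, both higher than T73, against 40.3% of all genes passing in either direction, and at 28°C PAU3 passed, against 15.1%. In Fermol cryophile at 28°C PAU5 and PAU6 passed, both lower, with medians of -1.0 and -1.04 that lie at the edge of the rule, against 22.5% of all genes. In S. uvarum at 28°C PAU17 was higher at a median of 1.11 and PAU4 lower at -1.04, against 34.2%. At 12°C no member passed in Fermol cryophile or S. uvarum, where 30.3% and 27.8% of all genes did.

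PAU1 and PAU2 had the smallest standard errors of the members and separated S. kudriavzevii from both other strains at both temperatures. At 12°C PAU1 in S. kudriavzevii stood at 0.23, 1.52 and 0.73 in replicates A, B and C. In Fermol cryophile its values were -0.76, -0.62 and -0.20, and in S. uvarum -0.32, -1.20 and -0.45, so that the 3 arrays of S. kudriavzevii lay above all 6 others. At 28°C PAU1 was at 0.34, 0.83 and 0.27 in S. kudriavzevii. In the same must it was at -0.85, -0.69 and -0.16 in Fermol cryophile and at 0.20, -0.58 and -0.11 in S. uvarum, and again the groups did not overlap. The difference of S. kudriavzevii from Fermol cryophile was 1.35 (SE 0.47, 95% interval 0.37 to 2.34) at 12°C and 1.04 (SE 0.47, 0.06 to 2.03) at 28°C, or 2.56-fold and 2.06-fold. Neither passed after adjustment (limma adjusted p = 0.667 and 0.661).

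PAU2 followed PAU1 closely, with a Pearson r of 0.835 over the 18 arrays. At 12°C PAU2 in S. kudriavzevii was at 0.39, 1.34 and 0.28, in Fermol cryophile at -1.47, -0.37 and -0.33, and in S. uvarum at 0.03, -1.19 and -0.77. At 28°C it was at -0.03, 0.05 and 0.86 in S. kudriavzevii, at -0.47, -0.39 and -0.32 in Fermol cryophile, and at -0.03, -0.49 and -0.59 in S. uvarum. Its lowest value in S. kudriavzevii at 28°C, -0.030, lay just above the highest in S. uvarum, -0.034, so this separation is as narrow as a separation can be. The difference from Fermol cryophile was 1.397 (SE 0.50, limma adjusted p = 0.667) at 12°C and 0.69 (SE 0.50, limma adjusted p = 0.713) at 28°C.

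PAU3 had the highest mean ratio of the members, in S. kudriavzevii at 28°C, and 1 array carried much of it. The 3 arrays of that group stood at 1.34, 1.69 and 4.90, a mean of 2.64 ± 1.96 (SD, n = 3) or 6.25-fold T73. The lowest of them was above each of the 4 values of the other strains at 28°C, which were 0.65 and -0.02 in Fermol cryophile and -0.25 and 0.09 in S. uvarum, with 1 array missing in each. Against T73 the fit gave 2.64 (SE 0.60, 95% interval 1.36 to 3.92, limma adjusted p = 0.116). Without replicate C the mean was 1.51. At 12°C PAU3 in S. kudriavzevii was at 0.84, -0.33 and 1.74, which overlapped with the other strains.

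Averaged over both temperatures, a comparison added after the values had been seen, PAU3 was the only member called. Its ratio in S. kudriavzevii was 1.70 (SE 0.42, 95% interval 0.79 to 2.60, n = 6, limma adjusted p = 0.0198), or 3.24-fold, where 15.4% of all genes were called. The call was lost without replicate C at 28°C, with 1.13 and an adjusted p of 0.0506 by limma. It was also lost with only the groups compared in the fit, where 354 of all genes were called. The other members lay between 0.48 and 1.21 in this average, and PAU1, PAU3 and PAU4 had an unadjusted p below 0.05, against 33.2% of all genes. No member was called in the corresponding averages of Fermol cryophile, where 0% of all genes were, or S. uvarum, where 13.8% were. In Fermol cryophile 8 of 8 averages were below 0, with PAU3 closest to it at -0.02, and PAU1, PAU2 and PAU6 had an unadjusted p below 0.05, against 9.32% of all genes. That count of 3 fell to 0 without its replicate A at 12°C, and without its replicate A or B at 28°C. PAU6 stood at -1.67 in this average, or at -0.37 without replicate A at 12°C.

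PAU4 and PAU5 moved together over the arrays, with a Pearson r of 0.883, the highest of any pair of members by that measure. By Spearman's rho they stood at 0.736, below PAU1 and PAU2 at 0.827. PAU4 in S. kudriavzevii at 12°C was at 1.78, 3.79 and -0.72, and PAU5 at 0.53, 2.60 and 0.36, both highest on replicate B. On that array, which also had the widest spread over all genes, the median of the members was 1.52. At 28°C PAU4 in S. kudriavzevii lay in a narrow range, at 0.64, 0.75 and 0.72, above Fermol cryophile at -0.94, -1.38 and -0.25 without overlap. The difference was 1.56 (SE 0.91, 95% interval -0.37 to 3.49, limma adjusted p = 0.693), where the SE comes from all 6 groups, among which the spread of PAU4 was uneven. PAU4 in S. uvarum at 28°C was divided, at 1.15 in replicate A and at -1.18 and -1.04 in replicates B and C.

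PAU6 had the widest range of the members. In Fermol cryophile at 12°C its values were -7.56, 0.86 and -0.36, a mean of -2.35 ± 4.55 (SD, n = 3) that rests on replicate A. Without that array the mean was 0.25. In S. kudriavzevii at 12°C it was at 2.20, 3.65 and 0.60, a mean of 2.15 ± 1.52 (SD, n = 3) or 4.43-fold T73, and in S. uvarum at 0.87, 1.82 and -0.84. At 12°C these groups overlapped. At 28°C they did not, with S. kudriavzevii at -0.05, 0.29 and 0.56 above Fermol cryophile at -1.04, -1.18 and -0.75 and S. uvarum at -2.75, -0.58 and -0.76. The difference from Fermol cryophile at 12°C, 4.50 (SE 1.49, limma adjusted p = 0.667), holds the single low array and is not a stable fold.

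PAU7 and PAU17 differed from the others in that S. uvarum, not S. kudriavzevii, had the highest mean at 28°C. PAU7 in S. uvarum was at 1.495, 0.73 and 0.68 at 28°C and at 0.43, 0.39 and 0.07 at 12°C, so that the temperatures did not overlap. PAU17 in S. uvarum was at 1.44, -0.10 and 1.11 at 28°C and at -0.43, -1.19 and -0.55 at 12°C, also without overlap. At 28°C PAU17 in S. kudriavzevii was at 1.39, -0.52 and 0.99, and its replicate B was low as in S. uvarum. At 12°C PAU17 was at 0.27, 0.17 and 0.90 in S. kudriavzevii and below 0 on all 6 arrays of the other strains. PAU7 is annotated with a gene length of 168 bases, against 363 to 375 for the other members in the RefSeq annotation of assembly R64.

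Between the strains, the members of S. kudriavzevii had the highest mean of the strains for 8 of 8 genes at 12°C and 6 of 8 genes at 28°C. Over all genes S. kudriavzevii was highest in 40.0% at 12°C and in 30.2% at 28°C. Fermol cryophile had the lowest mean for 5 of 8 members at 12°C and 6 of 8 at 28°C, where over all genes it was lowest in 37.4% and 31.1%. The arrays of S. kudriavzevii lay above those of Fermol cryophile without overlap for 5 of 8 members at 12°C (PAU1, PAU2, PAU5, PAU7 with 2 values, and PAU17), against 10.2% of all genes in that direction, and for 5 of 8 at 28°C (PAU1, PAU2, PAU3, PAU4 and PAU6), against 10%. They lay above S. uvarum for PAU1, PAU2, PAU7 and PAU17 at 12°C, against 6.56% of all genes, and for PAU1, PAU2, PAU3 and PAU6 at 28°C, against 6.78%. No member had S. kudriavzevii below either strain without overlap. Over all genes it lay below Fermol cryophile in 5.96% at 12°C and 9.50% at 28°C, and below S. uvarum in 4.27% and 9.39%. No member separated S. uvarum from Fermol cryophile in either direction, against 19.8% of all genes at 12°C and 13.3% at 28°C.

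**Figure D2:**
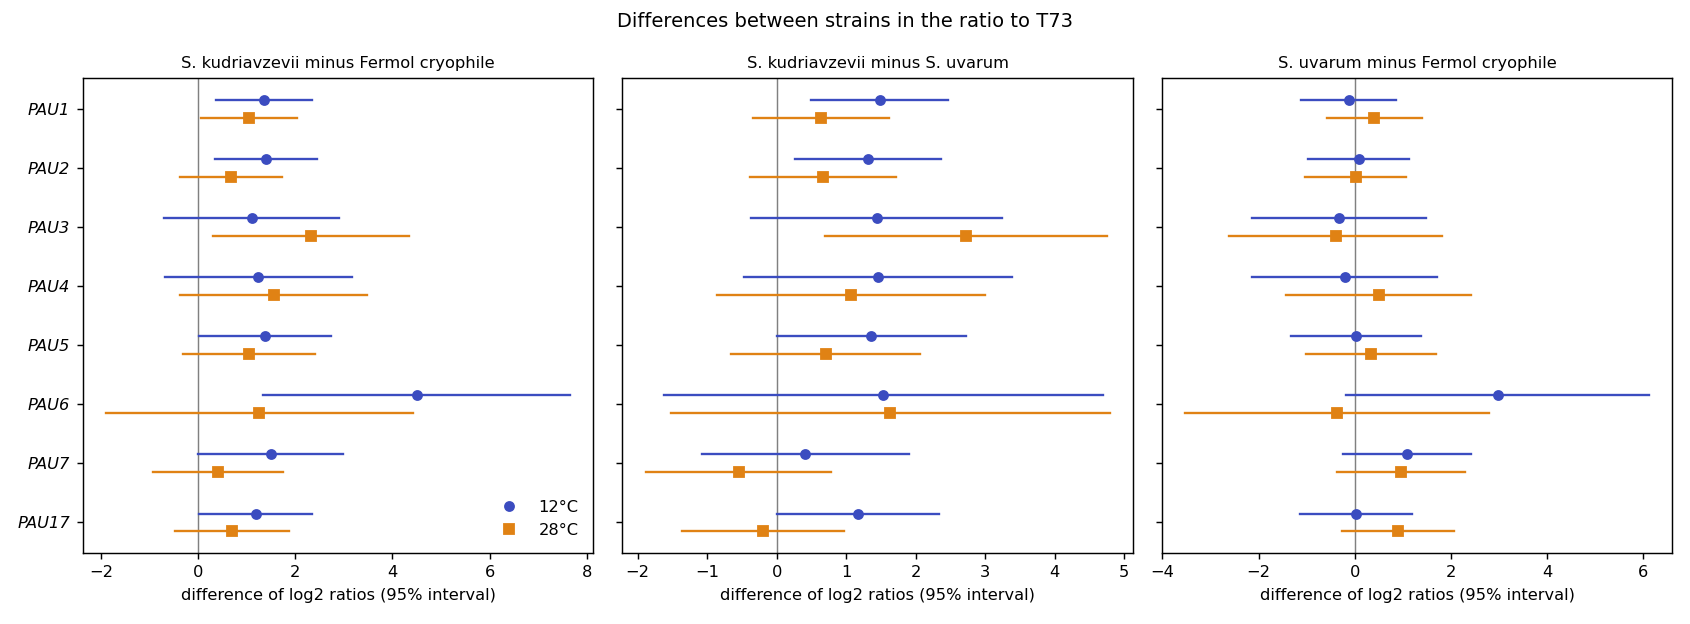
Difference between strains in the log2 ratio to T73 (x axis) for each member (y axis), with circles for 12°C and squares for 28°C and lines for the 95% interval of the limma fit. The differences of S. kudriavzevii from Fermol cryophile are above 0 for 8 of 8 members at both temperatures, and those between S. uvarum and Fermol cryophile all have intervals that include 0.

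The tests of these differences called 0 of 8 members in each comparison of strains. Few genes of any kind were called here. Between S. kudriavzevii and Fermol cryophile limma called 0% of all genes at 12°C and 0.0163% at 28°C, between S. kudriavzevii and S. uvarum 0% and 0.146%, and between S. uvarum and Fermol cryophile 0.0162% and 0%. At an unadjusted p below 0.05, 6 of 8 members were higher in S. kudriavzevii than in Fermol cryophile at 12°C (all but PAU3 and PAU4), against 7.12% of all genes in either direction. At 28°C they were 2 of 8, PAU1 and PAU3, against 7.24%. Against S. uvarum they were 4 of 8 at 12°C (PAU1, PAU2, PAU5 and PAU17), against 7.32%, and 1 of 8 at 28°C, PAU3, against 11.4%. These counts depended on the fit. The 6 became 3 when each array was centred or scaled, or only the groups compared were fitted, and 1 without replicate A of Fermol cryophile at 12°C. The 4 became 2 with centring or scaling, 1 with only the groups compared, and between 2 and 4 with single arrays left out. At 28°C the 2 became 5 with scaling, 4 with quantile normalisation and 0 without replicate B of Fermol cryophile, and the 1 became 4 with array weights and 0 without replicate C of S. kudriavzevii or A or B of S. uvarum. The comparisons share arrays of S. kudriavzevii, and their counts are not independent.

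Averaged over both temperatures, again a comparison added after the values had been seen, S. kudriavzevii exceeded Fermol cryophile for 8 of 8 members, by 0.94 to 2.88 on the log2 scale. The highest, of PAU6, holds the array at -7.56 and was 1.58 without it. Here 7 of 8 had an unadjusted p below 0.05 (all but PAU7), against 8.65% of all genes, or between 5 and 7 with single arrays left out, and 0 of 8 were called, as were 0% of all genes. The lowest adjusted p by limma, 0.349, was that of PAU1, at 1.20 (SE 0.33, 95% interval 0.50 to 1.90). S. kudriavzevii exceeded S. uvarum for 7 of 8 members, with PAU7 at -0.07, and 4 of 8 had an unadjusted p below 0.05 (PAU1, PAU2, PAU3 and PAU5), against 13.9% of all genes, or between 2 and 5 with single arrays left out. None was called, against 0.147% of all genes. Between S. uvarum and Fermol cryophile PAU7 alone had an unadjusted p below 0.05, at 1.02 (SE 0.44), or 0.65 without replicate A of Fermol cryophile at 12°C, against 12.8% of all genes, and none was called, against 0.0490%.

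The temperature had no common direction among the members. Because each ratio is against T73 at the same temperature, a difference here is one between the strain's and T73's temperature differences, and a level in a strain alone was not measured. Averaged over the 3 strains, the ratio at 28°C exceeded that at 12°C by 1.06 for PAU3, 0.79 for PAU17 and 0.39 for PAU7, PAU1 and PAU2 differed by 0.04 and 0.07, and PAU5, PAU6 and PAU4 stood at -0.72, -0.83 and -0.89. PAU6 lay between -1.70, without replicate A of Fermol cryophile at 12°C, and -0.30, without its replicate B, and PAU4 was at -0.53 without replicate B of S. kudriavzevii at 12°C. PAU3 was at 0.68 without replicate C of S. kudriavzevii at 28°C and PAU7 at 0.15 without replicate A of Fermol cryophile at 12°C. This split of 5 above and 3 below 0 became 3 and 5 when each array was centred or scaled, and 2 and 6 with array weights. PAU1 and PAU2 lie within the median shift of all genes, which was 0.14. None was called, against 36.2% of all genes. PAU17 alone had an unadjusted p below 0.05, with 0.79 (SE 0.32, 95% interval 0.12 to 1.47, limma adjusted p = 0.0611), against 46.6% of all genes.

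**Figure D3:**
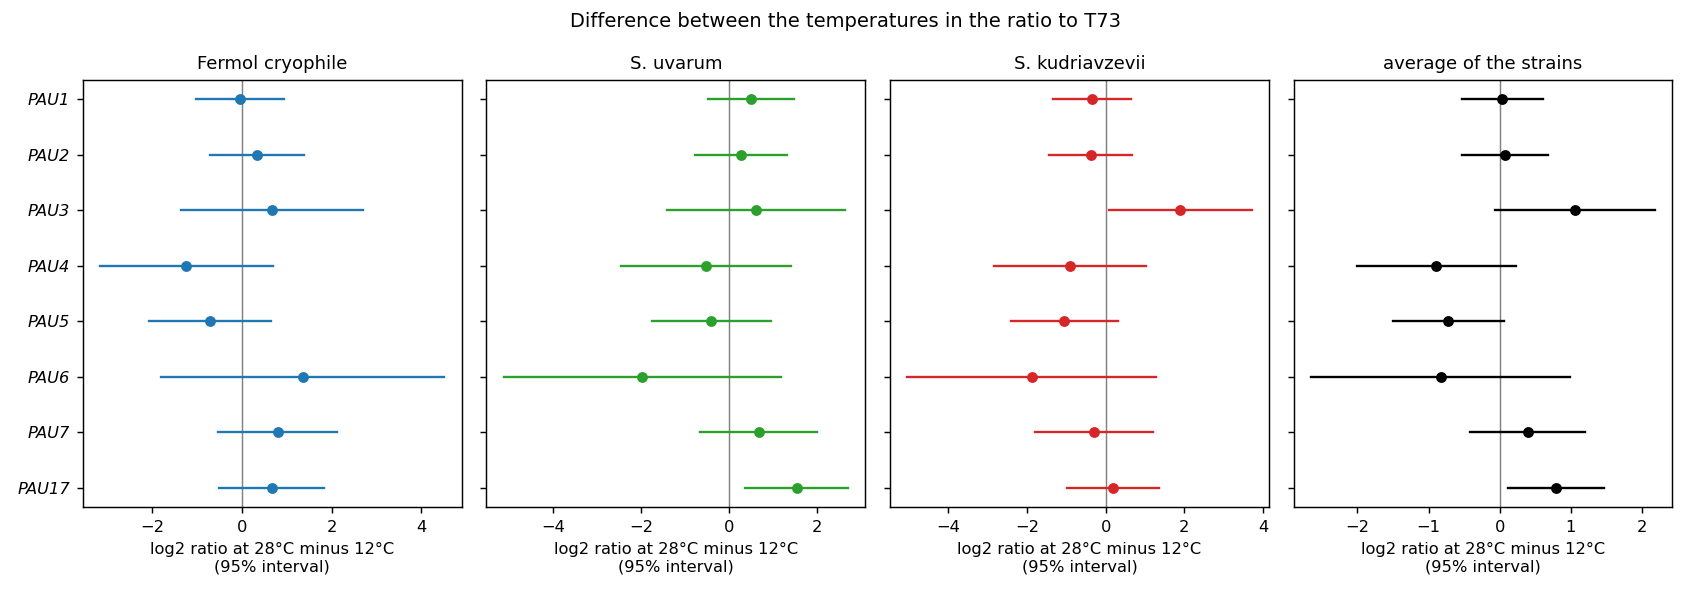
Log2 ratio to T73 at 28°C minus that at 12°C (x axis) for each member (y axis), by strain and averaged over the strains, with lines for the 95% interval of the limma fit. PAU3 lies above 0 and PAU4 and PAU5 below 0 in the average, and the intervals of the average include 0 for all members but PAU17.

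Within the strains PAU3 and PAU17 had a higher ratio at 28°C in each of the 3 strains, and PAU4 and PAU5 a lower one. Not all of these signs held with 1 array left out. PAU17 in S. kudriavzevii, at 0.18, stood at -0.21 without replicate A at 28°C. PAU4 stood at 0.17 in S. kudriavzevii without replicate B at 12°C, and at 0.08 in S. uvarum without replicate A at 12°C. Over all genes the median difference between the temperatures was 0.28 in Fermol cryophile, 0.13 in S. uvarum and -0.04 in S. kudriavzevii. Of the members 0 of 8 were called in each strain, against 12.2% of all genes in Fermol cryophile, 2.87% in S. uvarum and 0.407% in S. kudriavzevii. PAU17 in S. uvarum differed by 1.54 (SE 0.55, 95% interval 0.37 to 2.71, limma adjusted p = 0.115) and was the only member of that strain with an unadjusted p below 0.05, against 22.9% of all genes. In S. kudriavzevii this was PAU3, at 1.90 (SE 0.85, limma adjusted p = 0.228) or 0.77 without replicate C at 28°C, against 20.4%, and in Fermol cryophile it was none. Arrays at 28°C lay above those at 12°C without overlap for PAU7 and PAU17 in S. uvarum, against 14.7% of all genes. Arrays at 12°C lay above those at 28°C for PAU4 in Fermol cryophile, against 21.3%, and for PAU5 and PAU6 in S. kudriavzevii, against 15%. The differences between strains in these temperature differences were not called for any member in any of the 3 pairs, where 0% of all genes were called in each, and no member had an unadjusted p below 0.05. The largest of them, -3.34 for PAU6 between S. uvarum and Fermol cryophile (SE 2.11), again holds the array at -7.56.

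The other PAU genes showed the same side of T73 in S. kudriavzevii and, unlike the members, were called there. At 12°C limma called 9 of 15 higher and 0 lower, against 13.7% of all genes called higher, and 14 of 15 lay above 0, with a median of 1.46. The highest were PAU8 at 2.68 (SE 0.62, limma adjusted p = 0.00837), PAU24 at 2.47 (SE 0.53, limma adjusted p = 0.00671) and PAU13 at 2.15 (SE 0.41, limma adjusted p = 0.00418), and PAU15 at -0.26 was the only one below 0. These 3 were singled out after their values were seen, and PAU24 stood at 1.56 without replicate B. The calls rested on 2 arrays, since 3 of 15 were left without replicate A of that group and 1 of 15 without replicate B. They numbered 3 when each array was scaled to one spread, where 451 of all genes were called against 1439 without scaling. When only that group was fitted they numbered 0, as did the calls over all genes. At 28°C 0 of 15 were called in S. kudriavzevii, against 0.146% of all genes, although 14 of 15 lay above 0, with a median of 0.44. Of these 15, 2 had an unadjusted p below 0.05, against 11.3% of all genes. In its average over both temperatures, added after the values had been seen, 7 of 15 were called higher, against 9.09% of all genes. Without replicate A at 28°C 2 of 15 were.

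In Fermol cryophile at 12°C these other PAU genes were divided, 6 above and 9 below 0, with a median of -0.07 beside -0.13 over all genes. After each array was centred 9 of 15 lay above 0. Without centring 0 were called, against 8.12% of all genes, and 0 had an unadjusted p below 0.05, against 28.9%. At 28°C 15 of 15 of these other PAU genes lay below 0, with a median of -0.56. There 0 were called, against 0.0325% of all genes, and 2 had an unadjusted p below 0.05, against 13.4%. In S. uvarum 13 of 15 were below 0 at 12°C, but 7 of 15 without replicate C. At 28°C 11 of 15 were below 0. In S. uvarum 0 were called at either temperature, against 6.40% of all genes at 12°C and 10.9% at 28°C. An unadjusted p below 0.05 was reached by 0 at 12°C, against 24.7%, and by 4 at 28°C, against 28.2%. Averaged over the strains, 12 of 15 had a lower ratio at 28°C than at 12°C and 3 were called lower, PAU12, PAU20 and PAU13, a share near the 16.4% of all genes called lower. By the rule of the 2 highest and 2 lowest averages, PAU15 stood at 0.32 and PAU19 at 0.24, and PAU12 at -1.06 (SE 0.33, limma adjusted p = 0.0216) and PAU20 at -1.05 (SE 0.38, limma adjusted p = 0.0397). The 3 calls became between 1 and 5 when single arrays were left out, 5 without replicate C of S. kudriavzevii at 12°C. They became 1 without replicate B or C of Fermol cryophile at 12°C, A or B of it at 28°C, A or B of S. kudriavzevii at 12°C, B of it at 28°C, A of S. uvarum at 12°C or B of it at 28°C.

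**Figure D4:**
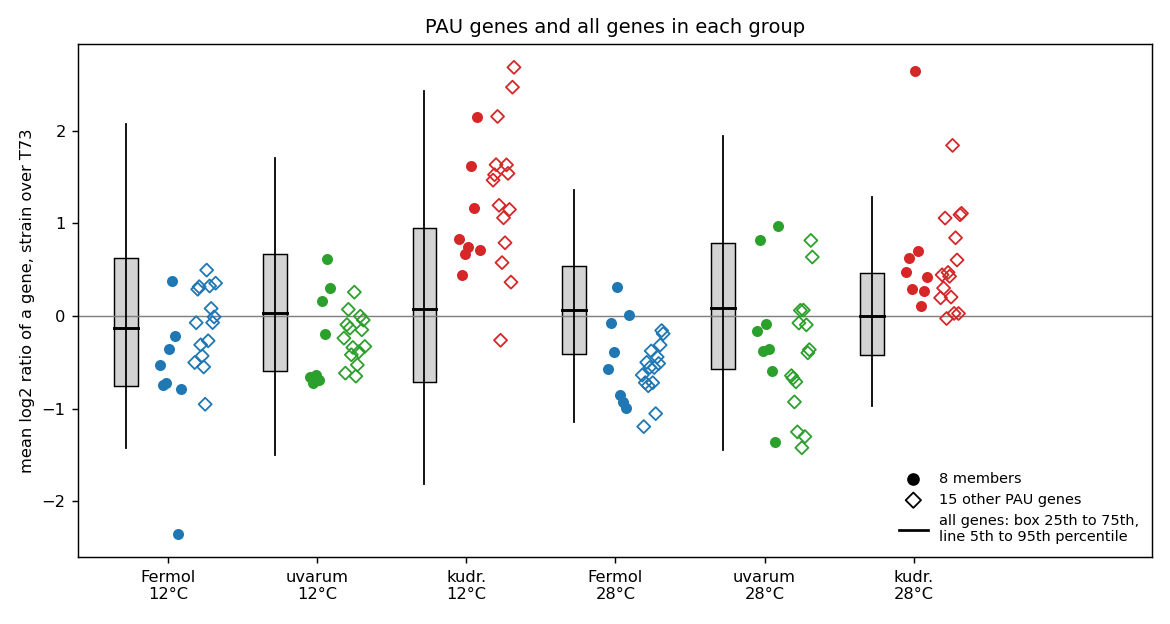
Mean log2 ratio of strain over T73 (y axis) in the 6 groups on the x axis, with filled circles for the 8 members, open diamonds for the 15 other PAU genes, and grey boxes (25th to 75th percentile) with lines (5th to 95th percentile) for all genes. In S. kudriavzevii at 12°C 8 of 8 members and 14 of 15 other PAU genes lie above 0, and in Fermol cryophile at 28°C 6 of 8 members and 15 of 15 other PAU genes lie below it.

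The mannoproteins related to seripauperins shared this order of the strains only in part. Of 9 such genes, the mean of S. kudriavzevii exceeded that of Fermol cryophile for 8 at 12°C and 6 at 28°C. It exceeded that of S. uvarum for 2 at 12°C and 1 at 28°C. In S. uvarum 8 of the 9 lay above 0 at both temperatures, with medians of 0.92 and 1.12, where the members had medians under 0. Called higher were TIP1, a cell wall mannoprotein induced by cold, and DAN4, a mannoprotein expressed under anaerobic conditions, in S. uvarum at 12°C and in S. kudriavzevii at 12°C, and TIR3 in S. uvarum at 28°C, at 1.94. These were 2 of 9, 2 of 9 and 1 of 9 genes, against 2.44%, 13.7% and 7.99% of all genes called higher. In S. uvarum at 12°C TIP1 stood at 1.72 (SE 0.46), or 1.13 without replicate C, and DAN4 at 1.48 (SE 0.39), and in S. kudriavzevii they stood at 1.43 and 1.69. Averaged over the strains, the ratio of DAN4 to T73 fell by 1.58 on the log2 scale from 12°C to 28°C (SE 0.31, limma adjusted p = 0.00163) and was the only 1 of 9 called, against 36.2% of all genes. TIP1 stood at -0.90 (limma adjusted p = 0.0699), TIR1 at 0.55 and TIR2 at 0.79 in that average. In Fermol cryophile alone DAN4 was also called, at -1.91.

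Of 10 regulators of hypoxic, sterol and PAU genes, 1 was called in each of 3 groups, against the same 2.44%, 13.7% and 7.99% of all genes called higher. ECM22, an activator of sterol genes, was higher in S. uvarum at 12°C at 2.38 (SE 0.63, limma adjusted p = 0.0357), with arrays at 0.64, 5.25 and 1.27 and a mean of 0.95 without replicate B. Of the general corepressor formed by CYC8 and TUP1, CYC8 was higher in S. kudriavzevii at 12°C at 1.75 (SE 0.59, limma adjusted p = 0.0417), from 2 values, and TUP1 in S. uvarum at 28°C at 1.31 (SE 0.35, limma adjusted p = 0.0272), or 0.81 without replicate A. Averaged over the strains, the ratio of SNF2, the ATPase of the SWI/SNF remodeller, fell by 1.48 from 12°C to 28°C (SE 0.33, limma adjusted p = 0.00341), the only 1 of 10 called against 36.2% of all genes, and it was also called in Fermol cryophile alone at -2.20. TUP1 at 0.55, SWI1, another subunit of that remodeller, at -0.03 and ECM22 at -0.71 were not called in the average. Of 9 further genes of anaerobic growth, HEM13, a step of heme synthesis, was higher in S. uvarum at 12°C at 1.85 (SE 0.49), or 0.98 without replicate B. ANB1, the anaerobic form of translation factor eIF5A, was higher in S. kudriavzevii at 12°C at 2.44 (SE 0.60, limma adjusted p = 0.0109), or 1.57 without replicate B. Each was the only 1 of 9 called higher in its group, against 2.44% of all genes in the former and 13.7% in the latter. AAC3, the anaerobic ADP/ATP carrier, was the only 1 of 9 called in the temperature average, again against 36.2%, at 1.63 (SE 0.45, limma adjusted p = 0.0111), and CYC7 stood at 0.54, PDR11 at -0.67 and ANB1 at -0.92. Of the 19 calls of other PAU genes and these lists in single groups, 18 were lost when some 1 array was left out, all but PAU13, as were both calls in Fermol cryophile between temperatures. Of the 6 calls in the temperature average, PAU12, DAN4, SNF2 and AAC3 kept theirs whichever array was left out, and PAU13 and PAU20 did not.

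The members resembled each other unevenly over the arrays. Pearson r between pairs ranged from -0.0128, between PAU4 and PAU7, to 0.883, between PAU4 and PAU5, and PAU3 had r of 0.0172 with PAU5 and -0.00456 with PAU6. Of 5001 genes outside the members with a value on all 18 arrays, the genes most like the mean of the members were YMC1, a mitochondrial carrier, with an r of 0.851, YPR087W with 0.849, PAU10 with 0.821, DDC1, a DNA damage checkpoint gene, with 0.820, and PAU13 with 0.805. Of 14 other PAU genes compared in this way, 12 ranked between 3 and 84, and PAU15 and PAU23 ranked 784 and 1923. On replicate A of Fermol cryophile at 12°C the mean of the members was -1.44 and their median -0.74, with PAU6 at -7.56. How far that value shaped the ranking was not tested. All these coefficients describe 18 points that share array, strain, temperature and the T73 channel, so that the spread of an array enters every one of them.

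The members lie at different distances from chromosome ends, by their order among the annotated genes of assembly R64. PAU1, PAU3, PAU4 and PAU6 are within 2 to 5 genes of an end, and PAU2, PAU5, PAU7 and PAU17 are 15 to 46 genes away. In S. kudriavzevii at 12°C the 4 genes near an end had a median of 1.22 and the 4 others 0.69, and at 28°C 0.59 and 0.36, with overlapping ranges at both temperatures. Of the adjacent genes, YLR462W followed PAU4 with an r of 0.796 over 18 arrays, and GAT1, an activator of nitrogen-repressed genes, followed PAU5 with 0.729. The other 13 adjacent genes compared had r between -0.265 and 0.418. GAT1 itself stood at 2.03 in Fermol cryophile at 12°C, where PAU5 was at -0.22, and at 1.91 in S. kudriavzevii at 12°C.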

How the data were processed

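Measured were 18 two-colour arrays of 3 strains against T73. Per the labels and methods, amplified RNA was labelled indirectly, scanned and read with GenePix Pro under global background subtraction, and normalised in Acuity to a value that the methods give as log2 ratio 1. Array medians lay between -0.196 and 0.208, so this was read as a ratio of 1. Missing spots were removed, and print-tip effects were then corrected by hand. The authors deposited log2 ratios of T73 over strain. The sign was turned here because such software usually puts Cy5 over Cy3, and 104 of 104 directions in the study's text matched once turned, against 0 as deposited. That is the sign of the file, not a check of how the dyes were recorded. The S. uvarum collection number differs between titles and characteristics, and the titles were followed.

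After 2 control lines were left out and 6 genes with several lines averaged, 6172 genes remained, named from RefSeq assembly R64. Values were missing for 1.47%, and PAU3 had 16 and PAU7 17 of 18. limma (version 3.58.1, R 4.3.3) was fitted with 1 coefficient per group over all arrays (prior degrees of freedom 4.74), for genes with at least 2 values per group, and was tested on simulated data. T73 counted as 1 control sample with the ratio tested against 0, so the control's own spread is left out. Tests were two-sided.

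The members and lists were chosen with earlier results of these data known. Named are all members, up to 4 genes per list with the 2 highest and 2 lowest average temperature differences, genes of the lists called, and the 5 genes most correlated with the members' mean. Alternatives were other centring, scaling or quantile normalisation, values beyond 10 set missing, array weights, only the groups compared, a replicate block, genes on all arrays, 3-fold for 2-fold, and each array left out. Sequences of the probes and genes were not used here.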

Additional observations from a re-analysis of the deposited data

Results flagged for a closer look

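For 7 differences every array of S. kudriavzevii lay above T73 and every array of the other strain below it. For PAU1 these were the differences from Fermol cryophile at 12°C, 1.35, and at 28°C, 1.04, and the difference from S. uvarum at 12°C, 1.48. For PAU17 they were those from Fermol cryophile, 1.19, and from S. uvarum, 1.17, both at 12°C. For PAU2 it was that from Fermol cryophile at 12°C, 1.397, and for PAU4 that from Fermol cryophile at 28°C, 1.56. Over all genes with 3 values in both groups, 1.82% met this rule for S. kudriavzevii and Fermol cryophile at 12°C and 2.38% at 28°C, and 0.922% did for S. kudriavzevii and S. uvarum at 12°C. All are on the log2 scale with 3 arrays on each side, and none passed the limma test of the difference after adjustment.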

How the results depend on the processing

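No called value changed direction under any alternative. With array weights limma called 4 members in Fermol cryophile and 1 in S. kudriavzevii at 12°C, against 57.8% and 38.7% of all genes. At 28°C it called 3 in Fermol cryophile, against 40.5%, 1 in S. uvarum, against 23.4%, and 1 in S. kudriavzevii, against 11.3%. Between temperatures it called 2 in Fermol cryophile, against 61.3%, and 3 in the average over strains, against 58.8%. With weights it also called 3 between S. kudriavzevii and Fermol cryophile at 28°C, against 25.6%. In the averages over both temperatures, added after seeing the data, weights gave 3 for Fermol cryophile, against 25.3%. They gave 1 for S. uvarum, against 22.5%, and 2 for S. kudriavzevii, against 40.4%. For S. kudriavzevii they gave 6 against Fermol cryophile, where 14.6% of all genes were called, and 5 against S. uvarum, where 21.9% were. Array scaling and quantile normalisation each called 1 member in S. kudriavzevii at 28°C, PAU3, at 3.24 and 3.30, where 293 and 342 of all genes were called. In the average of S. kudriavzevii over both temperatures the count of 1 became 0 with only the groups compared, where 354 of all genes were called. It also became 0 with only genes on all arrays, where PAU3 was not tested. With 3-fold for 2-fold, 0 members passed in Fermol cryophile and 0 in S. uvarum at 28°C. Why these counts moved was not tested.

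Same-letter deviations from group means at a temperature correlated with a median r of 0.0262 (-0.346 to 0.384 over 18 pairs). Between S. kudriavzevii and S. uvarum, replicates A, B and C gave 0.229, 0.0246 and 0.306 at 12°C. At 28°C they gave 0.246, -0.0529 and 0.384. The lowest, -0.346, was between Fermol cryophile and S. kudriavzevii at 28°C. Pairs of different letters were not compared, so these values do not show whether the letters pair the arrays. With the replicate block 1 member was called in S. kudriavzevii at 12°C, PAU5, and 1 in the temperature average, PAU17. In these comparisons the block called 1352 and 2220 of all genes. No other count of members moved with it. When single arrays were left out, the count ranged from 0 to 2 in S. kudriavzevii at 12°C, from 0 to 2 in the temperature average and from 0 to 2 in S. kudriavzevii over both temperatures, and from 0 to 0 in the other 22 comparisons. The first of these was 1 (PAU6) without replicate A of Fermol cryophile at 12°C and 2 (PAU4 and PAU5) without replicate C of S. kudriavzevii at 12°C. The temperature average was 1 (PAU6) without the former array, 2 (PAU4 and PAU17) without the latter, and 1 (PAU17) without replicate B of S. kudriavzevii or of S. uvarum at 28°C. The average of S. kudriavzevii was 2 (PAU3 and PAU4) without replicate C at 12°C and 0 without replicate C at 28°C. With all 18 arrays limma called 23.4% of all genes in S. kudriavzevii at 12°C, 36.2% in the temperature average and 15.4% in the average of S. kudriavzevii. The shares of all genes called with an array left out are not given here.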
